A study of Homo sapiens with 3 samples.

Results

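ESCRT-I is the second of the ESCRT complexes, the machinery that sorts ubiquitinated membrane proteins into the inner vesicles of multivesicular endosomes. The complex is built from TSG101, VPS28, 1 of the VPS37 proteins (VPS37A, VPS37B, VPS37C or VPS37D) and an accessory subunit such as UBAP1 or an MVB12 protein. It delivers receptors to lysosomes for degradation, and parts of the same machinery act in cytokinesis, in the release of exosomes and in virus budding. The transcripts of 7 subunits, VPS37A, VPS37B, VPS37C, VPS37D, TSG101, VPS28 and UBAP1, were read from 8 probes, among 43317 gene names and 58201 probes on the arrays. The set was put together around the low ratio of VPS37D, which differed in size between hairpins, so the ratios of VPS37D are given as a description with no test. The other 6 genes were included as subunits of the same complex.

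The arrays addressed which genes change when SPINK1, a secreted trypsin inhibitor, is silenced in prostate cancer cells. The cells were 22RV1, a SPINK1-positive prostate cancer line grown in RPMI-1640 with fetal bovine serum, penicillin-streptomycin and puromycin after lentiviral transduction. Cells carrying hairpin 1, 2 or 3 against SPINK1 (in the labels shSPINK1-1, shSPINK1-2 or shSPINK1-3) gave RNA labelled with Cy5, and cells carrying a scrambled hairpin (shSCRM) RNA labelled with Cy3. Each hairpin was hybridized on 1 two-color Agilent array against shSCRM RNA, and all carried a viral vector and puromycin resistance, the controls included. A log2 ratio below 0 therefore means less RNA with the SPINK1 hairpin than with shSCRM. The labels do not say that the arrays stand for separate cultures, and shSCRM was never hybridized against itself, so the spread between control cultures is left out of every error and p below. No dyes were swapped, so for any single gene the dye and the hairpin cannot be told apart.

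SPINK1 itself had log2 ratios of -3.71, -3.65 and -3.89 with hairpins 1, 2 and 3, a mean of -3.75 ± 0.12 (SD, n = 3; adjusted p = 6.1e-07 by limma). The hairpins thus lay within 0.23 of each other on the targeted gene. All 11 markers of prostate epithelium, among them KLK3 and HOXB13, stood well above background on every array in Cy3 and in Cy5. Of 5 fibroblast markers, COL1A1, DCN and LUM were also well above background and COL1A2 and COL3A1 were not; of the leukocyte markers, PTPRC was so in Cy3 and CD14 in both channels, and CD3E was in neither. Between 38.8% and 46.8% of the 60901 gene spots were well above background in a channel, and no gene spot was saturated.

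Each gene is read at 1 place in its transcript, so the probes that carry the results are shown, in the coordinates of the array's own annotation (hg19). Only the first 30 of the 60 bases are printed, in lower case and 5′ to 3′, for the VPS37D probe, for the probes of its paralogs VPS37B and VPS37C, for UBAP1, the subunit whose ratios ran in the opposite order, and for TSG101, the core subunit nearest to 0.
VPS37D (chr7:73086324-73086383, plus strand, NM_001077621): ttttctgtccctgtctccttagaatggaag
VPS37B (chr12:123350080-123350139, minus strand, NM_024667): aggacgattcactgccatgccagtcaggcg
VPS37C (chr11:60897790-60897849, minus strand, NM_017966): taagttatttataaagagaaatcactaatg
UBAP1 (chr9:34251982-34252041, plus strand, NM_016525): tgaaagattcttccagggttttattttttc
TSG101 (chr11:18502012-18502071, minus strand, NM_006292): gttgagctcttcttaaagtattcttctctt

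The probes for VPS28 (chr8:145649014-145649073) and VPS37A (chr8:17143905-17152523) are given by position only. The kept VPS37A probe covers 8619 bases of the genome with its 60, so it crosses a splice junction. Whether the other probes lie in coding sequence or in a UTR was not determined here. The full VPS37D probe shared at most 14 bases in a row with a probe of any other gene, on either strand, and at most 9 with a probe of another subunit. Its GC content was 45%, against 55% for VPS37B and 35% for VPS37C and UBAP1.

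VPS37D, which can take the VPS37 place in the complex, had the lowest ratio of the 7 subunits on average and with hairpins 1 and 2, while UBAP1 was lower with hairpin 3. On the arrays of hairpins 1, 2 and 3 the shSCRM channel of its probe read 1260, 974 and 1150, over a local background between 19.5 and 21. The shSPINK1 channel read 293, 377 and 590 over a background of 14 to 15. The control readings thus differed less than the knockdown readings, which were lowest with hairpin 1 and highest with hairpin 3. After normalization the log2 ratios were -1.58, -0.77 and -0.37, a mean of -0.91 ± 0.62 (SD, n = 3), or a 1.88-fold lower level on average. This left 33.4%, 58.5% and 77.6% of the shSCRM level with hairpins 1, 2 and 3. In bulk RNA, fewer cells with the transcript and less transcript per cell cannot be told apart.

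The gap between hairpins lay mostly in the shSPINK1 channel. Normalized levels of VPS37D in shSCRM were 10.02, 9.78 and 9.98 on the log2 intensity scale, a range of 0.24. That control range was the widest of the subunits, the next being 0.10 for TSG101. Part of the difference between hairpins 1 and 2 thus came from the control channel, which was higher on the array of hairpin 1. In shSPINK1 they were 8.43, 9.01 and 9.61, a range of 1.18, and none of the knockdown levels reached the lowest control level. The log2 ratio with hairpin 1 minus that with hairpin 2 was -0.81, hairpin 1 minus hairpin 3 was -1.22, and hairpin 2 minus hairpin 3 was -0.41. For scale, 283 probes spotted more than once on the same array had a standard deviation of 0.0560 to 0.0593 within an array. There is 1 array per hairpin, so a difference between hairpins cannot be separated from one between arrays. SPINK1 did not follow the same order, since its lowest ratio was with hairpin 3.

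**Figure D1:**
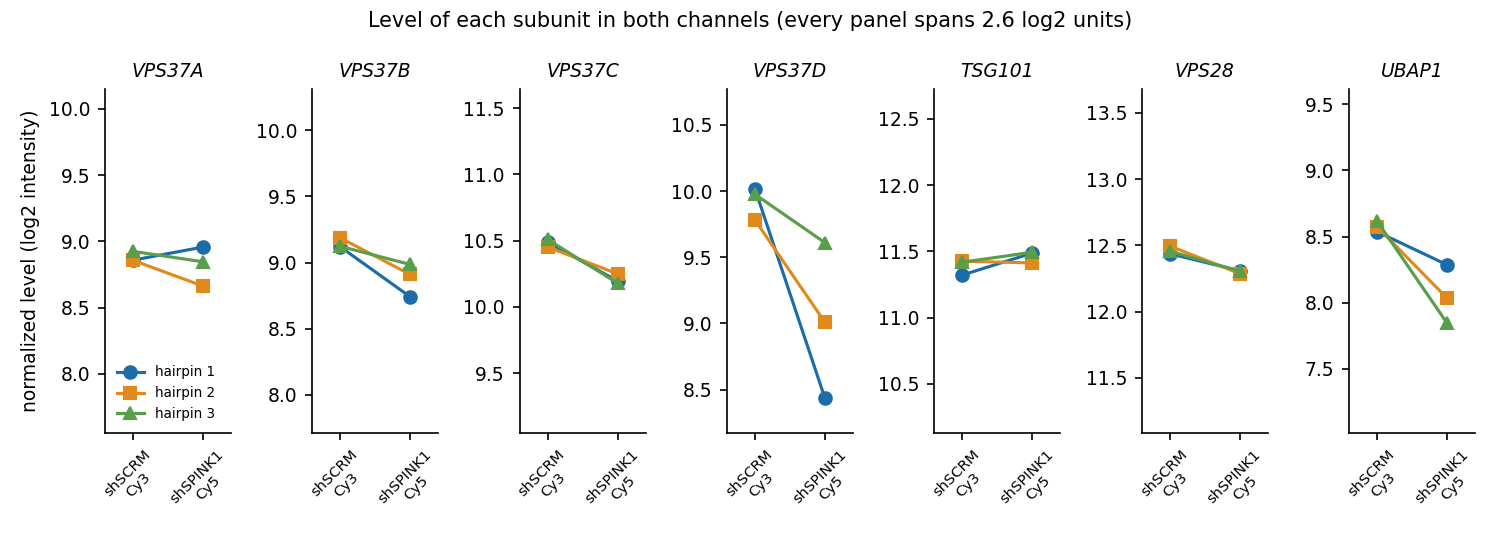
Normalized level of each ESCRT-I subunit on the log2 intensity scale in shSCRM (Cy3, left) and shSPINK1 (Cy5, right) on each of the 3 arrays, with a line joining the channels of an array; every panel spans the same number of log2 units. VPS37D levels lay between 9.78 and 10.02 in shSCRM and fanned out from 8.43 to 9.61 in shSPINK1, and UBAP1 fanned out with the hairpins in the opposite order.

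VPS37D was read from a single spot per array, of 40, 42 and 44 pixels, which was neither flagged nor saturated. The spots well above background within 3 rows and columns of it, 17, 17 and 16 on the arrays of hairpins 1, 2 and 3, had median log2 ratios of -0.03, 0.07 and 0.06, and their lowest values were -0.11, -0.62 and -0.21. The VPS37D spot was below all of these neighbours on each array. Feature Extraction, the scanner's own software, gave -1.71, -0.81 and -0.35, each with an error of 0.207 to 0.257, and the deposited table gave the same values to 2 decimals. The order of the hairpins was thus the same in each of these sources.

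Among 17061 genes with a probe well above background, the mean ratio of VPS37D ranked 3 from the lowest, and its ratio ranked 2, 19 and 457 with hairpins 1, 2 and 3. Its distance of 1.22 between the highest and the lowest hairpin compares with a median of 0.17 over all genes and a 99th percentile of 0.69. Only 9 genes, VPS37D among them, had a distance at least as large. These ranks restate why the gene was chosen and carry no test.

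**Figure D2:**
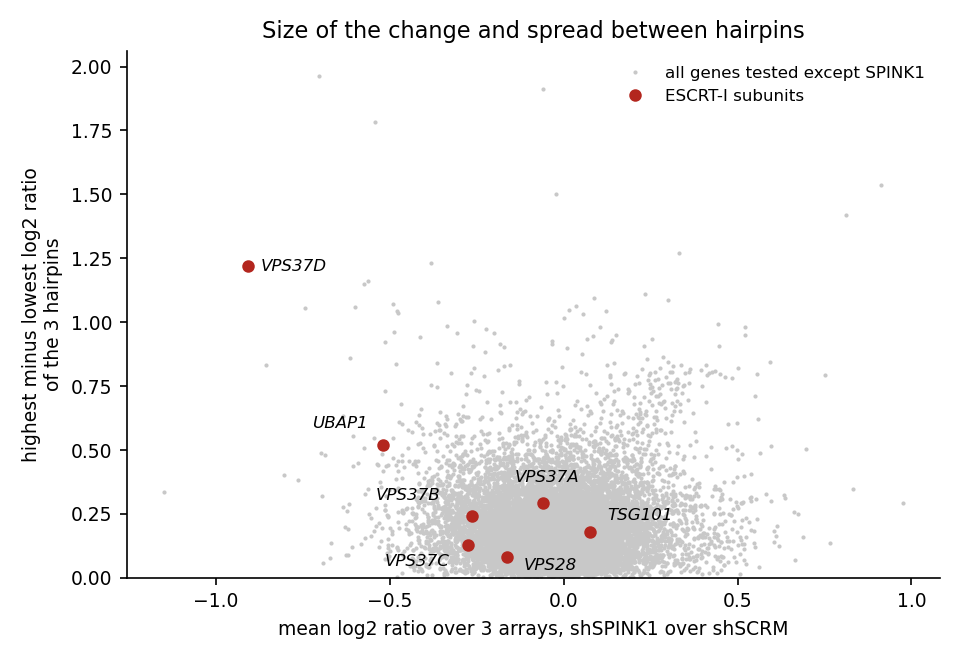
Mean log2 ratio over the 3 arrays (horizontal axis) against the distance between the highest and lowest hairpin in log2 units (vertical axis) for all genes tested except SPINK1 (grey) and the 7 ESCRT-I subunits (red). VPS37D sits at a mean of -0.91 and a distance of 1.22, apart from the other subunits, whose means lie between -0.52 and 0.08.

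The 6 other subunits were tested with limma over all 17061 genes. A gene was called where its mean log2 ratio passed 0.5 in size with an adjusted p below 0.05. Of the 6, 1 was called, UBAP1, which was lower. Over all genes 0.727% were called, 0.393% as lower and 0.334% as higher. At any size of ratio, 3 of the 6 passed the adjusted p, UBAP1, VPS37C and VPS37B, all lower, while over all genes 13.5% passed, 8.72% as lower and 4.77% as higher. Ratios of 4 of the 6 were below 0 on all 3 arrays, against 29% of all genes, and 0 of the 6 were above 0 on all 3, against 21.3%. The median of the 6 means was -0.21, beside -0.01 over all genes.

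UBAP1, the accessory subunit that serves endosomal sorting of ubiquitinated cargo, was lower with every hairpin. Its shSCRM channel read 431, 402 and 421 on the arrays of hairpins 1, 2 and 3, and its shSPINK1 channel 260, 177 and 150. Log2 ratios were -0.25, -0.54 and -0.77, which left 84.1%, 68.8% and 58.6% of the shSCRM level. Hairpin 3 gave the lowest level and hairpin 1 the highest, the reverse of VPS37D, and the normalized control levels stayed between 8.54 and 8.61. The mean was -0.52 ± 0.26 (SD, n = 3; adjusted p = 0.0163 by limma). It lay just past the limit of 0.5, and the call was lost without the array of hairpin 3 (mean -0.40, adjusted p = 0.0649). With the Feature Extraction ratios (mean -0.54) the adjusted p was 0.141, and the values the authors had tabulated gave 0.153.

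VPS37C and VPS37B, the paralogs that take the same place in the complex as VPS37D, had smaller ratios of the same sign. VPS37C read 1760, 1540 and 1680 in shSCRM and 1090, 926 and 894 in shSPINK1, with log2 ratios of -0.29, -0.20 and -0.33. These lay close together, with a mean of -0.28 ± 0.07 (SD, n = 3; adjusted p = 0.0183 by limma). VPS37B read 663, 631 and 622 in shSCRM and 372, 350 and 375 in shSPINK1. Its log2 ratios of -0.38, -0.28 and -0.14 ran in the order of VPS37D over a much narrower range, with a mean of -0.26 ± 0.12 (SD, n = 3; adjusted p = 0.0320 by limma). Neither gene reached the limit on size. Over the other ways of processing, the adjusted p by limma ran from 0.000484 to 0.167 for VPS37C and from 0.000473 to 0.274 for VPS37B.

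VPS37A, the paralog that pairs with UBAP1, had ratios on both sides of 0. Its kept probe read 548, 497 and 534 in shSCRM and 437, 291 and 334 in shSPINK1. Log2 ratios were 0.10, -0.20 and -0.08, a mean of -0.06 ± 0.15 (SD, n = 3; adjusted p = 0.602 by limma), so the sign differed between hairpins. With each array centred on its median in place of loess the mean was -0.40 (adjusted p = 0.00384), a setting that shifted the median of all genes to -0.23. A second probe for VPS37A, on the transcript ENST00000425020, read 29.1 to 33.2 in Cy3 and 17.5 to 18.7 in Cy5 and was not well above background on any array, so no ratio is given for it.

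Compared on the same array, VPS37D was lower than the mean of VPS37A, VPS37B and VPS37C by a log2 difference of -1.39, -0.55 and -0.18 with hairpins 1, 2 and 3. The mean of the 3 paralogs was -0.19, -0.23 and -0.18, but it averages VPS37A and VPS37B, whose ratios moved between hairpins in different orders, so its spread is not that of a single gene. With hairpin 3 the VPS37D ratio of -0.37 was close to that of VPS37C, at -0.33. These differences follow from the choice of VPS37D and were not tested.

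Neither core subunit, TSG101 or VPS28, passed the adjusted p. TSG101, which binds ubiquitin and recruits the complex, read 3150, 3030 and 3170 in shSCRM and 2770, 2120 and 2270 in shSPINK1. After normalization its log2 ratios were 0.17, -0.01 and 0.08, a mean of 0.08 ± 0.09 (SD, n = 3; adjusted p = 0.402 by limma). That sign depends on the scaling, since centring each array on its median in place of loess gave -0.27 for TSG101 (adjusted p = 0.0149). VPS28, which links ESCRT-I to ESCRT-II, read 6790, 6400 and 6540 in shSCRM and 4960, 3950 and 4010 in shSPINK1. Its log2 ratios of -0.13, -0.21 and -0.15 were below 0 on all 3 arrays, with a mean of -0.16 ± 0.04 (SD, n = 3), and the adjusted p of 0.0708 by limma missed the threshold; it passed with no filter on dim probes (0.0483) and with median centring (mean -0.49, adjusted p = 0.000835).

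**Figure D3:**
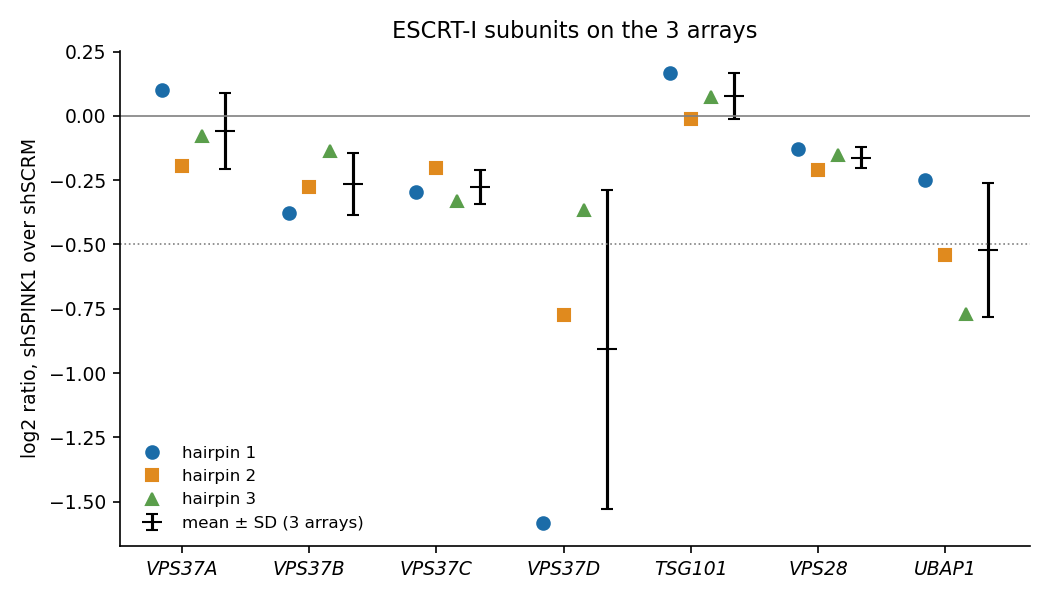
Log2 ratio of shSPINK1 over shSCRM for the 7 ESCRT-I subunits with hairpin 1 (circle), 2 (square) and 3 (triangle), and the mean ± SD over the 3 arrays (black); the dotted line marks the limit on size at -0.5. VPS37D spans -1.58 to -0.37 and UBAP1 -0.25 to -0.77 in opposite hairpin order, and TSG101 and VPS37A straddle 0.

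The rest of the ESCRT machinery was followed through 32 further genes, all of them measured. By limma, 0 of the 32 were called, and 13 had an unadjusted p under 0.05, 11 of them lower, where 29.8% of all genes had one, 18.4% as lower. At any size, 6 passed the adjusted p, all lower, against 8.72% of all genes, and 15 of the 32 were below 0 on all 3 arrays against 29% of all genes; their median was -0.07 and their range -0.34 to 0.22. No gene of this machinery reached the mean of VPS37D or UBAP1.

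Of the 4 accessory genes of ESCRT-I, none passed the adjusted p by limma, where 13.5% of all genes did. At an unadjusted p under 0.05, 2 of the 4 were lower and 1 was higher, where 29.8% of all genes had one. MVB12B, a subunit that can take the place of UBAP1, had a mean of -0.19 (adjusted p = 0.0590 by limma), but 0.05 by its other kept probe, and UBAP1L, a relative of UBAP1, a mean of 0.22 (adjusted p = 0.0611). The 3 genes of ESCRT-0, which binds ubiquitinated cargo first, and the 3 of ESCRT-II had no unadjusted p under 0.05. Over all genes 29.8% had one, so groups of 3 are too small to read this as a result about them. In those groups HGS was at 0.07, STAM at -0.02, SNF8 at -0.05 and VPS36 at -0.04.

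ESCRT-III, whose subunits polymerize to pinch off the vesicle, held 5 of the 6 genes that passed. These were 5 of its 12 genes, all lower, where 8.72% of all genes passed as lower. Of its 12 genes 8 were below 0 on all 3 arrays, against 29% of all genes, and the median was -0.16. CHMP7 had log2 ratios of -0.33, -0.33 and -0.36 (mean -0.34, SE 0.05, adjusted p = 0.00882 by limma). CHMP5 had -0.40, -0.29 and -0.32 (mean -0.33, SE 0.05, adjusted p = 0.0106), and its other kept probe had a mean of -0.25. CHMP1A, CHMP1B and CHMP2B, named after their values were seen, passed at means of -0.30, -0.19 and -0.19, though the other kept probe of CHMP1A stood at -0.02. The hairpins lay close together for these 5 genes, which passing at such small means over 3 arrays favours. VPS37D was chosen for ratios that differed between hairpins, so its wider spread beside theirs follows from the selection.

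Among VPS4, the ATPase that takes ESCRT-III apart, and the ESCRT adaptors, 1 of 10 genes passed the adjusted p, no larger a share than the 13.5% of all genes. PTPN23, an adaptor in the sorting of growth factor receptors, had log2 ratios of -0.35, -0.21 and -0.46 (mean -0.34, SE 0.06, adjusted p = 0.0167 by limma). VTA1, which activates VPS4, had -0.05, -0.40 and -0.33 (mean -0.26, adjusted p = 0.0576), and -0.01 by its other kept probe.

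**Figure D4:**
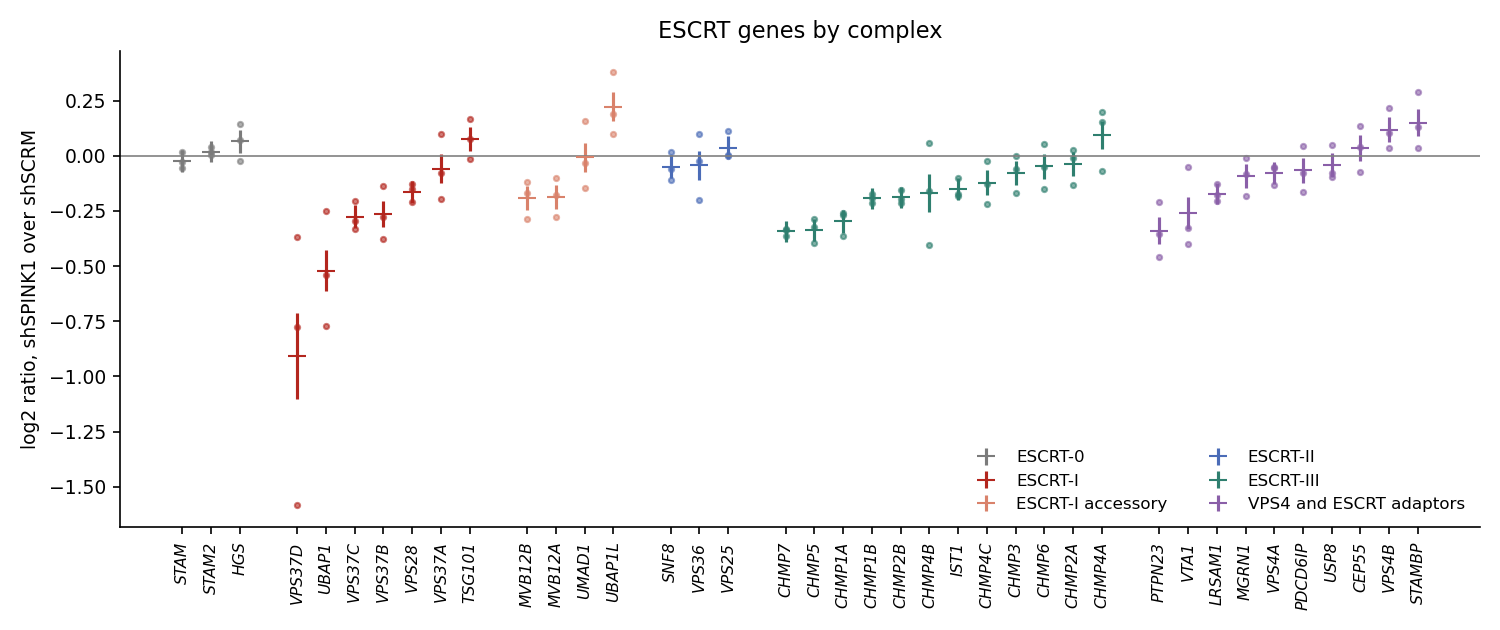
Log2 ratio of shSPINK1 over shSCRM for the 7 ESCRT-I subunits and the 32 other ESCRT genes, grouped by complex; points are the 3 arrays, the horizontal mark is the mean and the vertical line the mean ± SE of the fit. VPS37D and UBAP1 are the lowest means at -0.91 and -0.52, and the other genes lie between -0.34 and 0.22.

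Of 16 genes of endosomes and exosomes, 1 was called by limma, as lower, where 0.727% of all genes were called, 0.393% as lower. SDCBP, which encodes syntenin, a partner of ESCRT in exosome formation, had log2 ratios of -0.39, -0.74 and -0.44 (mean -0.52, SE 0.08, adjusted p = 0.00902). It was lowest with hairpin 2, so it shared the hairpin order of neither VPS37D nor UBAP1, and its call was lost without that array. LAMP1, a lysosomal membrane protein, passed the adjusted p below the limit on size, with 0.13, 0.45 and 0.27 (mean 0.28, adjusted p = 0.0365). At any size, 1 of the 16 thus passed as lower and 1 as higher, against 8.72% and 4.77% of all genes. The median of the 16 was -0.01, the same as over all genes.

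VPS37D lies on chromosome 7 in the region deleted in Williams-Beuren syndrome. Of 24 gene names within 500 kb of it on the arrays, 18 were measured; by limma 0 of these were called, and 7 had an unadjusted p under 0.05, 6 of them lower, against 29.8% and 18.4% of all genes. The median was -0.04. At any size, 4 neighbours passed the adjusted p, all lower, against 8.72% of all genes. BAZ1B, a chromatin remodelling subunit, had log2 ratios of -0.39, -0.41 and -0.50 (mean -0.43, SE 0.05, adjusted p = 0.00657), but a mean of 0.17 by its other kept probe. CLDN3, a tight junction claudin, had -0.41, -0.39 and -0.43 (mean -0.41, SE 0.05, adjusted p = 0.00657). TBL2 and LIMK1, named after their values were seen, had means of -0.27 and -0.24. The measured genes on either side of VPS37D, also picked after their values were seen, were MLXIPL, with -0.48, -0.04 and 0.17, and DNAJC30, with 0.11, -0.12 and -0.10. MLXIPL had the hairpin order of VPS37D but crossed 0 (adjusted p = 0.531), and DNAJC30, 10.55 kb away, did not follow it (adjusted p = 0.751).

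**Figure D5:**
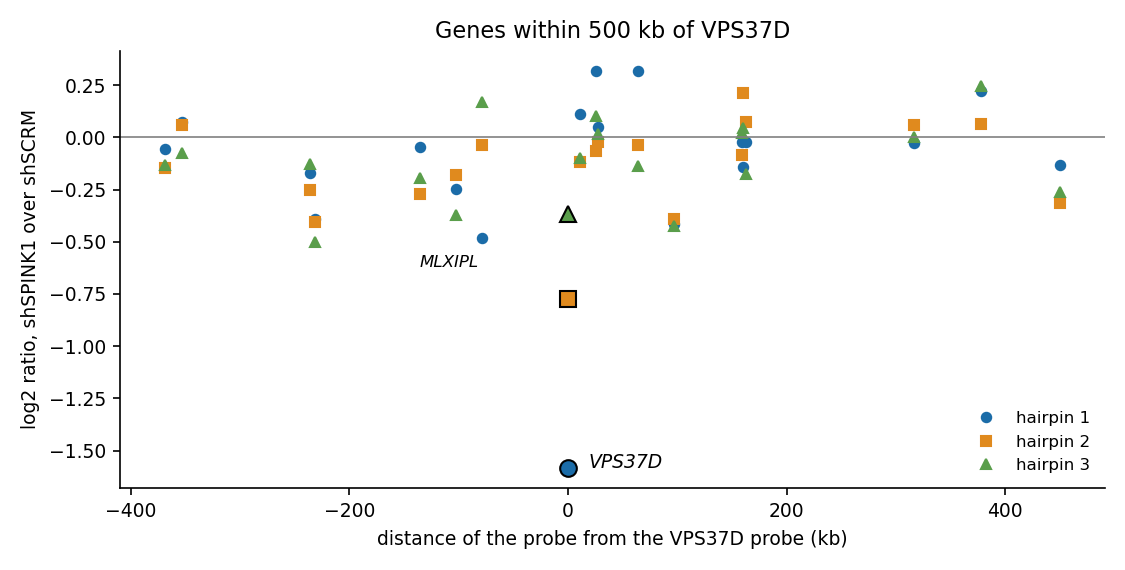
Log2 ratio of shSPINK1 over shSCRM with hairpin 1 (circle), 2 (square) and 3 (triangle) for VPS37D (outlined) and the 18 measured genes within 500 kb, by the distance of the probe from the VPS37D probe in kb. With hairpins 1 and 2 no neighbour was as low as VPS37D, and with hairpin 3, at -0.37, BAZ1B (-0.50), CLDN3 (-0.43) and TBL2 (-0.37) were as low or lower.

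The 5 genes whose log2 ratios over the 3 arrays lay nearest to those of VPS37D, by Euclidean distance, were BNIP3L (distance 0.314), CDKN1C (0.554), PALM (0.572), SLC45A3 (0.586) and LSS (0.645). BNIP3L, a mitophagy receptor, had -1.37, -0.54 and -0.32, but its other kept probes had means of 0.19 and -0.25. CDKN1C, a cyclin-dependent kinase inhibitor, had -1.16, -0.54 and -0.10, and PALM, which encodes the membrane protein paralemmin, had -1.08, -0.53 and -0.22. SLC45A3, a prostate-enriched transporter, had -1.18, -0.50 and -0.03, and LSS, lanosterol synthase, had -0.98, -0.85 and -0.58, with a mean of -0.20 by its other kept probe. In all 5 the ratio was lowest with hairpin 1 and highest with hairpin 3, an order that the choice by distance favours. None of these genes is an ESCRT subunit, and likeness over 3 values on shared control RNA is a description only.

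Cell markers with the hairpin order of VPS37D, lowest with hairpin 1 and highest with hairpin 3, were also counted. They numbered 5 of 11 prostate markers, 3 of the 3 measured fibroblast markers and 0 of the 3 measured leukocyte markers, against 18.5% of all genes and, beside VPS37D, 1 of the 6 other subunits, VPS37B. Of the 32 further ESCRT genes, 9 (28.1%) had that order, among them 3 of the 4 accessory genes of ESCRT-I. HOXB13, a prostate transcription factor, had log2 ratios of -0.73, -0.22 and -0.13, and TMPRSS2, an androgen-regulated protease, had -0.37, -0.35 and -0.54, not in that order. The matrix proteoglycan genes DCN and LUM were at -0.59 and -0.48 with hairpin 1, at -0.41 and -0.45 with hairpin 2, and at 0.17 and 0.05 with hairpin 3, while the leukocyte genes PTPRC and CD14 had means of -0.07 and -0.01. COL1A1, the other measured fibroblast marker, named after its values were seen, had -0.0692, 0.0166 and 0.0171. Its order thus rested on nearly equal values with hairpins 2 and 3. The summed normalized brightness of the 11 prostate markers was 41800, 41400 and 41000 in shSCRM and 34700, 40600 and 40700 in shSPINK1, lowest with hairpin 1. The sum of the 5 fibroblast markers was 774 to 805 in shSCRM and 607, 619 and 841 in shSPINK1, and that of the 4 leukocyte markers 296 to 308 in shSCRM and 293 to 305 in shSPINK1. Markers not well above background were included, each with the offset of 50, so a low sum lies partly on a floor and moves little. The part of the cell markers in the ratios of VPS37D was not tested.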

How the data were processed

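Total RNA of 22RV1 cells with 3 hairpins against SPINK1 (Cy5) was compared with shSCRM RNA (Cy3) on 3 two-color Agilent arrays from 1 slide. The authors deposited Feature Extraction output, with the intensity of each spot and its local background in both channels, not normalized, and a log10 ratio of Cy5 over Cy3 from the software. A further deposited table held log2 values for 43307 gene names; for 17059 measured genes, 78.6% to 79.9% of its values were within 0.02 of the log2 ratio of processed signals, and its columns had medians of -0.12, -0.17 and -0.20, so its centring is unknown. Its direction was that of Cy5 over Cy3. The methods state Lowess normalization and Benjamini-Hochberg adjustment.

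The intensities went through limma 3.58.1 in R 4.3.3: normexp with an offset of 50, which understates ratios of dim probes, loess within arrays without control or flagged spots, and averaging of spots of a probe. A probe was kept if well above background in Cy5 or in Cy3 on all 3 arrays (21443 probes), and the brightest kept probe stood for a gene. The mean log2 ratio was tested against 0 over 17061 genes with Benjamini-Hochberg adjustment, and a call needed an adjusted p under 0.05 and a mean beyond 0.5. Brightness is the mean signal of the spot, with background included. The limma step was checked on simulated data. Figures were drawn with matplotlib 3.10.9. Precision is limited by the number of arrays.

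The members, the lists of genes and markers and the tests were chosen with earlier results of these data known. Named genes are SPINK1, the 7 subunits, in each other list and among genes within 500 kb of VPS37D those called and the 2 with the largest mean ratio, and the 5 nearest to VPS37D; any other is marked where it appears. Alternatives covered the background correction, normalization, source of values, filter, probe rule and each array left out. Some markers are not reported by name here.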

Additional observations from a re-analysis of the deposited data

How the results depend on the processing

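The mean log2 ratio of VPS37D was below 0 under all 11 alternatives, from -1.26 with median centring to -0.57, and from -1.18 to -0.57 with 1 array left out. The number of other ESCRT-I subunits called, 1, became 3 with median centring, when VPS37B (-0.61) and VPS37C (-0.63) passed the limit on size. It became 0 with the scanner software's log ratios and with the deposited table, where 3 of the subunits had an unadjusted p under 0.05. Leaving out 1 array gave 0 to 1, and 0 without hairpin 3. The count for endosomes and exosomes, 1, became 3 with median centring, 0 with the software's ratios (2 at an unadjusted p under 0.05), 0 with the deposited table (3), and 0 to 1 with 1 array left out. Of the other ESCRT genes 7, and of the neighbours of VPS37D 4, were called with median centring, and 0 of either under every other alternative. Median centring, which moved the median of all genes to -0.23 and called 1967 genes in place of 124, reversed TSG101 to -0.27, and leaving out hairpin 2 reversed VPS37A to 0.010, its range with 1 array left out being -0.14 to 0.010. The software's ratios and the deposited table each called 3 genes in all, and offset 10, the mean of kept probes and leaving out hairpin 1 called 221, 90 and 225. For the software's ratios and the deposited table, the share of all genes with an unadjusted p under 0.05 is not given here. The counts at that p therefore have no scale beside them. The cause of the changes between alternatives was not tested. A slide or scan block was not run, since all arrays shared 1 slide and 1 scan. No paired analysis was possible because each array already holds both samples and each hairpin was hybridized once.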
